A study of Mus musculus with 18 samples.

Results

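The comparison described here is PIP4K2B depletion in etoposide-treated C2C12 cells: 6 of the 18 arrays of the study, 3 of WT-TAF3 sh-PIP4K2B cells minus 3 of WT-TAF3 shX cells, chosen by their titles and read across 19938 genes. C2C12 is a mouse myoblast line that fuses into myotubes when serum is withdrawn. All cells were stably depleted of their own TAF3 with a retroviral shRNA and rescued with murine TAF3 from a retroviral vector, so every array comes from a rescued knockdown and none from unmodified cells. WT-TAF3 sh-PIP4K2B cells then received a lentiviral shRNA against PIP4K2B, and WT-TAF3 shX cells the control, which is named in the paper and not in the labels of these arrays. Both were treated with etoposide at 10 µM for 7 hours. The other arrays hold KK-TAF3 sh-PIP4K2B cells, whose TAF3 carries a mutation that removes its binding to phosphoinositides, under etoposide (3 arrays), and the same 3 genotypes after 2 days of differentiation (3 arrays each; the series' design text gives another number of days). The arrays of a group are called biological triplicates, and nothing says more of how the cultures were kept apart, so a p-value here measures the spread between these arrays.

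PIP4K2B is a lipid kinase that phosphorylates PI5P and so keeps the level of this phosphoinositide low, also in the nucleus. TAF3 is a subunit of TFIID, the complex that recruits RNA polymerase II to core promoters, and its PHD finger reads trimethylated lysine 4 of histone H3 and binds phosphoinositides. Etoposide traps topoisomerase II on DNA and leaves double-strand breaks, to which cells respond with p53 and a block before mitosis. The question the comparison addresses is which genes depend on PIP4K2B in etoposide-treated cells. No array is of cells given neither etoposide nor differentiation, so an effect of depletion cannot be tied to the stress itself.

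Pip4k2b itself was measured at a log2 signal of 9.92, 9.74 and 9.63 on the sh-PIP4K2B arrays, against 10.75, 10.71 and 10.48 on the shX arrays. Every depleted array lay below every control array. The change was -0.88 (SE 0.10, adjusted p = 3.68e-05), a 1.84-fold fall, where SE is the standard error and the adjusted p comes from limma with the Benjamini-Hochberg method over all genes, as do all that follow. Its paralogs were not past the threshold. Pip4k2a stood at -0.18 (SE 0.07, adjusted p = 0.209) and Pip4k2c at 0.07 (SE 0.07, adjusted p = 0.618). Taf3, which the shRNA of all cells targets and the rescue vector restores, was at 8.84, 8.86 and 8.77 on the sh-PIP4K2B arrays and at 8.70, 8.77 and 8.81 on the shX arrays, which overlap (change 0.06, SE 0.07, adjusted p = 0.648). Tbp, the TATA-binding subunit of TFIID, stood at -0.04 (SE 0.11, adjusted p = 0.854).

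The values are log2 signals after RMA, a method that corrects background, brings arrays to 1 distribution and sums up the probes of each transcript. The depleted etoposide arrays were the most variable group. The median SD of a gene was 0.137 among the sh-PIP4K2B arrays and 0.0952 among the shX arrays, against 0.0694 to 0.0730 in the differentiated groups, and correlations within a group began at 0.9904 for sh-PIP4K2B and at 0.9942 for shX. Medians of the arrays ran between 7.321 and 7.462 in the sh-PIP4K2B group and between 7.316 and 7.403 in the shX group, so they overlap. None of the 11 measured marker genes of myoblasts was past the threshold, though their mean signal was 10.35 to 10.39 on the sh-PIP4K2B arrays and 10.43 to 10.46 on the shX arrays (median change -0.095), and none of the listed markers of fibroblasts, fat cells, bone, macrophages, endothelium, keratinocytes or neurons was. RNA was taken from whole cultures, so a lower signal can mean less RNA per cell or fewer cells that make it, which cannot be told apart.

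The threshold for a call was an adjusted p below 0.05 together with more than 1.4-fold change. PIP4K2B depletion raised 64 genes and lowered 109 after etoposide, 0.321% and 0.547% of the 19938 genes tested, or 0.868% together, while the median change of all genes was 0.024. Most changes were small. The median change was 0.55 among the 64 and -0.62 among the 109, and 3 rises and 8 falls exceeded 2-fold. In 171 of the 173 genes the 3 arrays of one group all lay above the 3 of the other, which held for 15.0% of all genes tested (6.93% with sh-PIP4K2B on top and 8.02% with it below). Fitted on the 6 arrays alone, the test gave 39 higher and 60 lower, and 98 of these 99 genes were among the 173. Without sh-PIP4K2B replicate 1 it gave 84 higher and 264 lower, without replicate 2 it gave 91 and 74, and with the array medians as a covariate 96 and 81, so the total and the balance of rises and falls both moved with the arrays and their scaling.

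**Figure D1:**
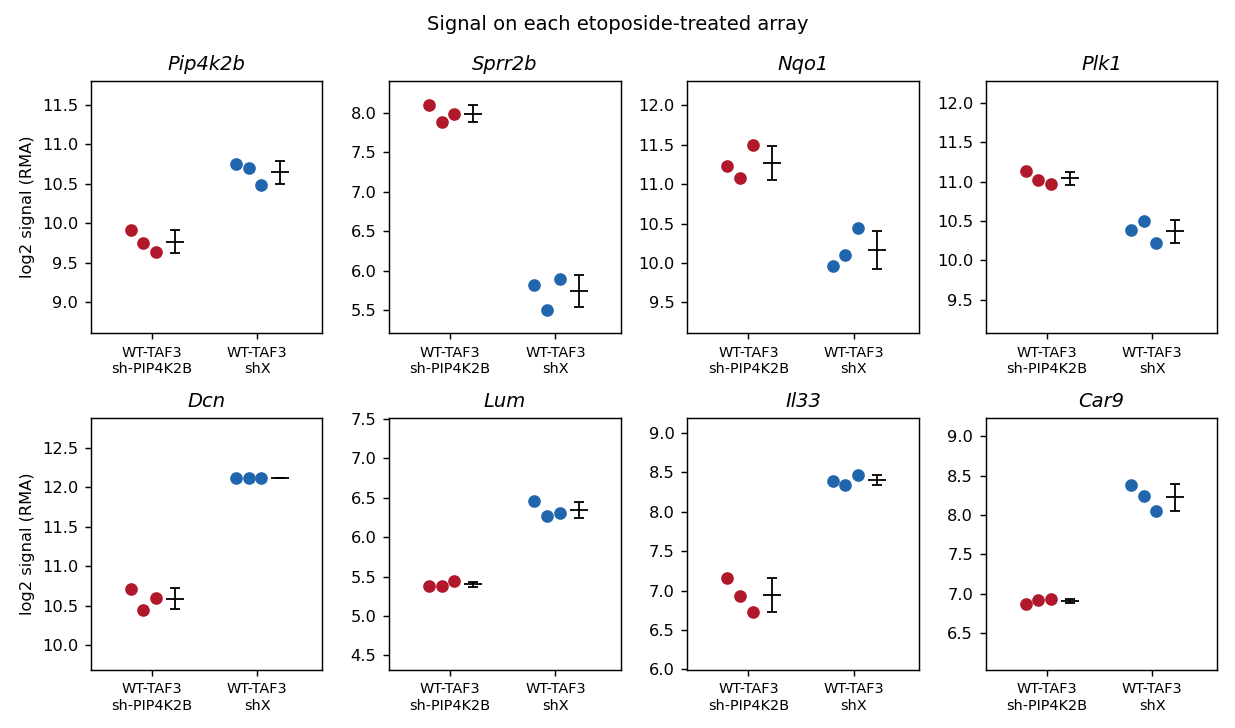
Log2 RMA signal (vertical axis) of 8 genes on the 3 WT-TAF3 sh-PIP4K2B arrays (red, left) and the 3 WT-TAF3 shX arrays (blue, right) after etoposide, with 1 point per array and the mean and SD beside them. Sprr2b, Nqo1 and Plk1 lie higher on every depleted array, and Pip4k2b, Dcn, Lum, Il33 and Car9 lower.

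Genes of cell division formed the largest group that rose. Of 49 measured genes of the G2 and M phases 18 were higher and none lower (36.7%, against 0.321% of all genes), and all 49 had a change above 0, with a median of 0.45. In 40 of the 49 every sh-PIP4K2B array lay above every shX array, which held for 6.93% of all genes. Averaged over the 49, the log2 signal was 9.793, 9.539 and 9.686 on the sh-PIP4K2B arrays, against 9.29, 9.229 and 9.213 on the shX arrays. Replicate 2 was the lowest of the depleted arrays and still lay above all control arrays. The count of 18 became 11 on the 6 arrays alone and ran from 11 to 26 over all settings tried, and this list was one of those chosen with earlier results of these data known.

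Kif20a, a kinesin that works at the spindle midzone in cytokinesis, was at 10.54, 10.42 and 10.52 with sh-PIP4K2B, against 9.83, 9.74 and 9.75 with shX. It changed by 0.72 (SE 0.06, adjusted p = 1.2e-06), the most of the 49. Plk1, the kinase that drives entry into and passage through mitosis, was at 11.14, 11.02 and 10.98, against 10.38, 10.50 and 10.22 with shX. It changed by 0.67 (SE 0.09, adjusted p = 1.13e-04). The groups were apart for both genes, and the nearest Plk1 arrays differed by 0.47. Kif23, a second midzone kinesin, rose by 0.63 (SE 0.07), the spindle kinase Aurka by 0.61 (SE 0.07), Kif2c, which shortens microtubules at centromeres, by 0.60 (SE 0.08), the cyclin Ccna2 by 0.59 (SE 0.06) and Cdc20, the activator of the anaphase-promoting complex, by 0.58 (SE 0.08). The others were Hmmr, Cenpf, the checkpoint kinase Bub1b, Kif11, Aurkb, Spag5, the mitotic cyclin Ccnb2, Ect2, Foxm1, a transcription factor of G2 genes, the separase Espl1 and Ube2c, between 0.49 and 0.59. Mki67, the proliferation marker, stood at 0.57 with a wide error (SE 0.18, adjusted p = 0.109), and Birc5 and Top2a, the enzyme that etoposide traps, stood at 0.47 (SE 0.09) and 0.45 (SE 0.09), short of 1.4-fold. The smallest changes were those of Plk4 at 0.08, Bub3 at 0.09 and Cdc25b at 0.14. Outside the list, Kif18b, a kinesin of astral microtubules, rose by 0.78 (SE 0.09, adjusted p = 5.91e-05) and Prr11, a proline-rich protein of cycling cells, by 0.69 (SE 0.10).

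**Figure D2:**
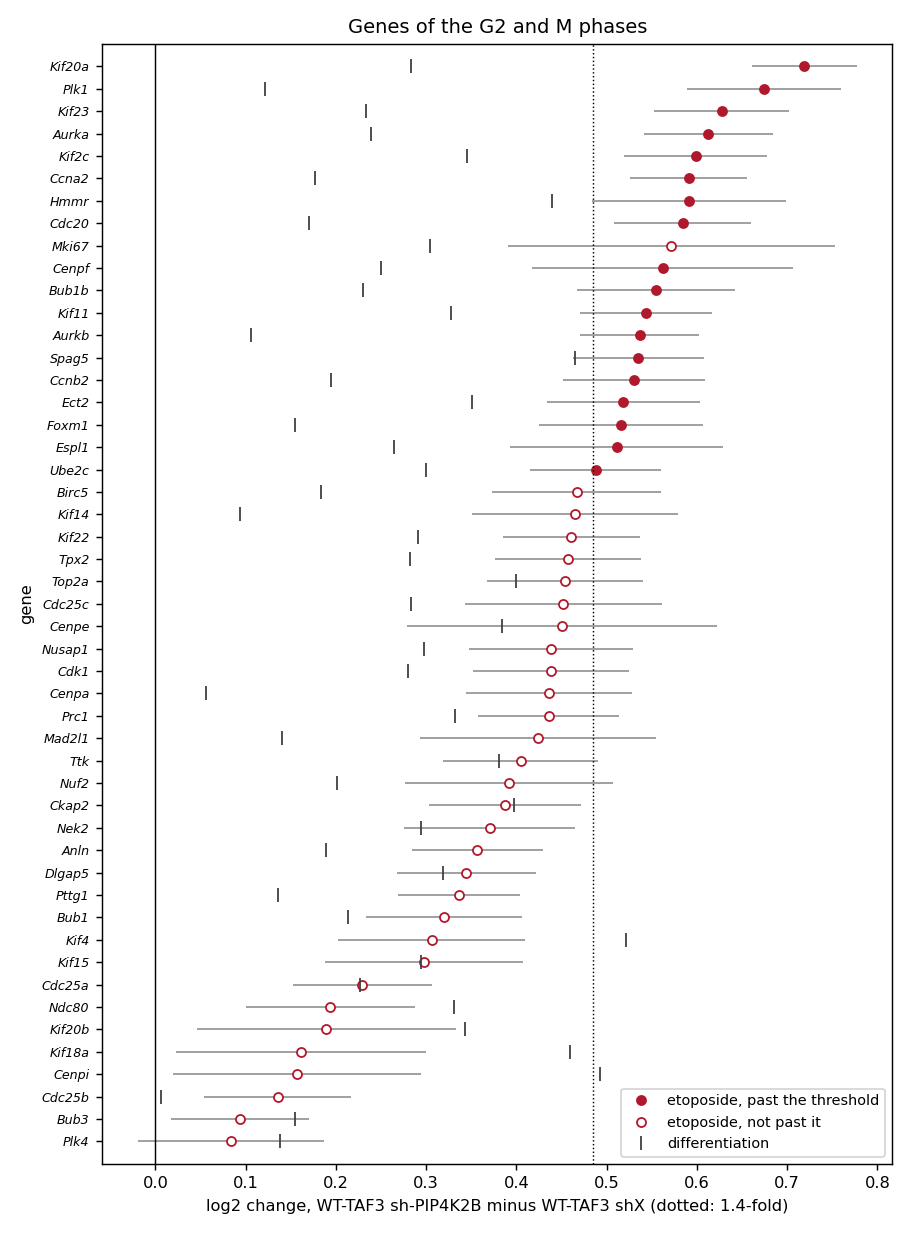
Log2 change of each of the 49 measured G2 and M genes (rows) on PIP4K2B depletion in cells with WT-TAF3 after etoposide (circles with SE; filled where past the threshold) and after differentiation (ticks). All 49 circles lie right of 0, and 18 are filled.

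Many promoters of cell division genes carry a short element near the start of transcription, the CHR with the letters TTTGAA, through which the DREAM and MuvB complexes keep these genes off outside G2 and M. Searched on both strands in the 250 bases before and 50 after the first start that RefSeq lists for each gene (GRCm38.p6), TTTGAA stood in 28 of 50 promoters of genes that rose (56.0%), in 9 of 75 of genes that fell (12%) and in 2358 of all 15563 (15.2%). Among the G2 and M genes it stood in all 14 promoters of members that rose and in 29 of 42 of all members (69.0%). Within 50 bases of the start it was found in 13 of the 14, in 22 of the 50, in 2 of the 75 and in 3.82% of all. This motif was added after the gene results were seen, and a match of 6 letters is a description, not a bound site. To show how the element sits, the stretches around it are given for Kif18b, Prr11 and the 6 members of the list with the largest rises and a promoter in the RefSeq table, with its letters in capitals (TTCAAA where it reads on the other strand) and each written 5′ to 3′ along the strand of the gene.
Kif18b, chr11:102925104-102925133, minus strand: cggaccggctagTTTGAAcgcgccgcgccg
Prr11, chr11:87108694-87108723, minus strand: caaagatttaatTTTGAAattttctttatg
Plk1, chr7:122159453-122159482, plus strand: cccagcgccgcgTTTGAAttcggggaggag
Kif23, chr9:61946780-61946809, minus strand: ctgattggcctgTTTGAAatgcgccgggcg
Aurka, chr2:172370521-172370550, minus strand: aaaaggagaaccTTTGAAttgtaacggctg
Kif2c, chr4:117178858-117178887, minus strand: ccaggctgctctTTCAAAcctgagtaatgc
Hmmr, chr11:40733412-40733441, minus strand: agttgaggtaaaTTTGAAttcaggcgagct
Cdc20, chr4:118437344-118437373, minus strand: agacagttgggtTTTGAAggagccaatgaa
In Plk1 the element began 30 bases and in Aurka 32 bases after the start, in Kif18b, Prr11, Kif23 and Hmmr 2 to 8 bases after it, in Cdc20 at -18 and in Kif2c at -103 from it.

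Fewer genes of S phase passed the threshold, 20.0% of the histone list and 6.25% of the replication list, against 0.868% of all genes. Of 20 measured clustered histone genes, whose RNA is made during DNA replication, 4 were higher and none lower, with 19 above 0 and a median of 0.27. H2ac4 was at 8.51, 8.68 and 8.60 with sh-PIP4K2B, against 7.77, 7.80 and 7.84 with shX, groups that lie far apart beside their spread (change 0.79, SE 0.12, adjusted p = 5.57e-04). H2bc9, H2bc14 and H2ac15 rose by 0.53, 0.51 and 0.50, and these 3 calls were lost with each array centred on its median and without sh-PIP4K2B replicate 2. That of H2bc9 was also lost without shX replicate 2, and that of H2bc14 without shX replicate 1 or 2 or sh-PIP4K2B replicate 3. The histone genes of these clusters resemble each other closely, and cross-hybridisation among them was not tested. Of 48 genes of DNA replication 3 were higher and none lower, with a median of 0.23: the cyclin Ccne2, which starts S phase, at 0.68 (SE 0.17, adjusted p = 0.0306), Cdt1, which loads the replicative helicase, at 0.55 (SE 0.08), and Mcm5, a subunit of that helicase, at 0.51 (SE 0.06). The call of Ccne2 was lost without shX replicate 1 or 2 or sh-PIP4K2B replicate 3, and that of Mcm5 without shX replicate 1 or sh-PIP4K2B replicate 3.

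Of genes of the answer to DNA damage, 2.38% of p53 targets and 3.12% of apoptosis regulators passed the threshold, against 0.868% of all genes. Lists of this length hold few or no calls at that share. Of 42 measured p53 targets 1 was higher and none lower, with a median of -0.007. That gene is Gtse1 at 0.58 (SE 0.08, adjusted p = 1.56e-04), which restrains p53 in G2 and is itself a gene of dividing cells. Mdm2, the ubiquitin ligase of p53, stood at 0.28 (SE 0.07, adjusted p = 0.033) and Gadd45a at -0.37 (SE 0.07, adjusted p = 0.00745), both short of 1.4-fold, and Ccng1, Btg2 and Fas stood at 0.07, 0.04 and -0.05. Cdkn1a was not analysed here. Of 41 genes of break repair limma called none, nor did any pass with the p left unadjusted (0 genes), and the same held for 28 immediate early and stress factors. Of 32 apoptosis regulators Casp12, a caspase linked to stress of the endoplasmic reticulum, fell by 0.57, SE 0.11, adjusted p = 0.00687, a call lost on the 6 arrays alone and without sh-PIP4K2B replicate 2.

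A pair of genes that NRF2 controls in the answer to oxidative stress rose. Nqo1, the quinone reductase, was at 11.23, 11.08 and 11.50 with sh-PIP4K2B, against 9.96, 10.10 and 10.44 with shX. The arrays spread over 0.42 and 0.48, and the lowest depleted one still lay 0.64 above the highest control. The change was 1.1 (SE 0.13, adjusted p = 6.64e-05). Hmox1, which breaks down heme, was at 10.68, 10.74 and 10.77, against 10.12, 10.14 and 10.11 with shX (change 0.61, SE 0.06, adjusted p = 1.26e-05). The pair made up 6.9% of the 29 measured genes of this list, against 0.868% of all genes past the threshold. The other 27 were not past it, and the median of the 29 was 0.069. Gsr, Gclm and Gclc, which make and recycle glutathione, stood at 0.30, 0.26 and 0.24, Srxn1 at 0.16 and Slc7a11 at 0.04, and Aldh3a1 stood at -0.38.

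The small leucine-rich proteoglycans, matrix proteins that bind collagen fibrils and growth factors, were the list with the largest share of falls: 6 of 15 were lower and none higher (40.0%, against 0.547% of all genes). Decorin, Dcn, was at 10.72, 10.45 and 10.60 with sh-PIP4K2B, against 12.12, 12.12 and 12.12 with shX. This was the largest fall of all genes, 2.90-fold, with control arrays that agreed to 2 decimals (change -1.53, SE 0.07, adjusted p = 3.1e-10). Asporin, Aspn, a close relative that binds TGF-beta, was at 9.01, 8.50 and 8.99, against 9.90, 9.80 and 10.04 with shX (change -1.08, SE 0.17, adjusted p = 9.34e-04). Its replicate 2 was the lowest of the depleted arrays. Lumican, Lum, was at 5.38, 5.38 and 5.44, against 6.47, 6.27 and 6.31 with shX, a dim signal on all 6 arrays (change -0.95, SE 0.09, adjusted p = 3.63e-06). Prelp, Ecm2 and Omd fell by 0.67, 0.64 and 0.63. The other 9, among them biglycan, Bgn, at 0.01 and fibromodulin, Fmod, at -0.10, were not past the threshold, so the median of the 15 was -0.11 while the mean was -0.37. Between 4 and 6 of them were called lower under the settings tried.

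Several of these genes lie next to each other in the genome. In the RefSeq gene order Dcn and Lum are neighbours on chromosome 10, beside Kera at -0.02 and Epyc at 0.07, and Ecm2, Aspn and Omd are neighbours on chromosome 13, beside Ogn at -0.11. The protease inhibitors Serpinb6b, Serpinb9 and Serpinb9b form another run on chromosome 13, with changes of -0.93 (SE 0.11), -0.56 (SE 0.13) and -0.85 (SE 0.10), between Serpinb1c at -0.24 and Serpinb1b at -0.06. These serpins are close paralogs, and cross-hybridisation among them was not tested. In all, 18 of the 172 genes past the threshold with a known position lay in 8 runs of neighbours, and the runs were of one direction except that of Hgf, higher, and Sema3c, lower, on chromosome 5.

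Among other matrix genes, 1.89% of the collagen list and 9.76% of the protease list passed the threshold, against 0.868% of all genes. Of 53 collagen and fibrillar matrix genes periostin, Postn, a matrix protein of wound repair, fell by 0.61, SE 0.08, adjusted p = 1.2e-04, and no other was past the threshold. Among 28 other proteoglycan and hyaluronan genes limma called none, and 0 passed with the p left unadjusted. Among 41 proteases and inhibitors the collagenase Mmp2 fell by 0.59, SE 0.09, adjusted p = 6.98e-04, with Serpinb9b, while the protease Pappa, which frees insulin-like growth factors, rose by 0.50, SE 0.09, and Serpinb2, an inhibitor of plasminogen activators, by 0.65, SE 0.13. Pappa and Serpinb2 were not past the threshold on the 6 arrays alone, nor was Pappa without sh-PIP4K2B replicate 1 or shX replicate 3, or Serpinb2 without sh-PIP4K2B replicate 3 or shX replicate 1. P3h2, which hydroxylates collagen prolines, fell by 0.89, SE 0.13, and Chst15, which sulfates chondroitin chains, by 0.87, SE 0.08. Itga4, the integrin chain that binds fibronectin and VCAM1, was at 8.04, 7.69 and 7.84 with sh-PIP4K2B, against 9.10, 8.89 and 8.78 with shX. It fell clear of the spread of both groups (change -1.07, SE 0.09, adjusted p = 1.66e-06) and was the only one of 25 integrin genes past the threshold.

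Interleukin 33, Il33, a cytokine stored in the nucleus and released from damaged cells, was at 7.16, 6.93 and 6.73 with sh-PIP4K2B, against 8.39, 8.34 and 8.47 with shX. The depleted arrays spread more than the control arrays and the nearest arrays of both groups were 1.18 apart (change -1.46, SE 0.10, adjusted p = 9.02e-08), a 2.75-fold fall. Il1rn, the secreted antagonist of the interleukin 1 receptor, was at 9.21, 9.01 and 9.11, against 9.98, 9.85 and 9.88 with shX (change -0.79, SE 0.10, adjusted p = 7.97e-05). Il33 and Il1rn made up 5.88% of 34 measured cytokines and chemokines, against 0.868% of all genes past the threshold. The other 32 were not past it. Il6 stood at -0.05, Il1b at 0.08, Ccl2 at -0.12 and Cxcl1 at 0.17, none past the threshold. Ptgs2, the inducible cyclooxygenase, rose by 0.55, SE 0.07, adjusted p = 2.03e-04, and Ptges3, a co-chaperone with prostaglandin E synthase activity, fell by 0.71, SE 0.07, adjusted p = 1.26e-05. Socs2, a feedback inhibitor of growth hormone signalling, fell by 0.70, SE 0.07, adjusted p = 1.26e-05. Among 39 interferon and antigen presentation genes limma called none. With the p left unadjusted 2 of them passed, and 188 of all genes tested did. Cd74, the invariant chain of MHC class II, acts in antigen presentation but is not in this list. It rose by 0.98, SE 0.08, adjusted p = 1.41e-06, so the list does not cover every such gene.

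Car9, the membrane carbonic anhydrase that HIF1 induces in low oxygen, was at 6.88, 6.92 and 6.93 with sh-PIP4K2B, against 8.39, 8.24 and 8.05 with shX. The depleted arrays lay within 0.06 of each other and 1.11 below the lowest control (change -1.32, SE 0.12, adjusted p = 3.76e-06). Pdk1, which keeps pyruvate out of the mitochondrion, fell by 0.51, SE 0.09, adjusted p = 0.00347, a call lost on the 6 arrays alone, without sh-PIP4K2B replicate 2 and without shX replicate 3. Car9 and Pdk1 made up 7.14% of 28 hypoxia and glycolysis genes, against 0.868% of all genes past the threshold. The other 26 were not past it: Vegfa stood at 0.02, Slc2a1 at -0.04, Ldha at -0.01, Pgk1 at -0.15 and P4ha1 at -0.31. The median of the list was -0.064.

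Among 43 semaphorins, plexins, Slit, Robo and netrin genes, which guide axons and migrating cells, 3 were lower and 1 higher. These 4 were 9.3% of the list, against 0.868% of all genes past the threshold. The semaphorin Sema3c was at 11.19, 11.07 and 11.19 with sh-PIP4K2B, against 11.98, 11.98 and 12.01 with shX (change -0.84, SE 0.07, adjusted p = 1.2e-06). The groups were tight, and their nearest arrays were 0.79 apart. Sema3d fell by 0.79, SE 0.13, and the Robo ligand Slit2 by 0.67, SE 0.14, while Plxna4, a co-receptor of semaphorins, rose by 0.50, SE 0.09. Sema3c alone of these 4 was past the threshold on the 6 arrays. Without sh-PIP4K2B replicate 2 or shX replicate 1 neither Slit2 nor Plxna4 was past it, without sh-PIP4K2B replicate 3 or shX replicate 2 Slit2 was not, and without sh-PIP4K2B replicate 1 or shX replicate 3 Plxna4 was not. The other 39 of 43 genes of this list were not past it. Gfra1, the receptor of GDNF, was at 9.31, 9.20 and 9.08, against 10.26, 10.29 and 10.09 with shX, apart by 0.78 at the nearest arrays (change -1.01, SE 0.09, adjusted p = 2.17e-06). Camk1g, a calcium-dependent kinase, fell by 1.04, SE 0.10, Medag, a protein of fat cell formation, by 0.89, SE 0.11, and Pfn2, an actin-binding profilin, by 0.88, SE 0.14.
Hgf, the growth factor that activates muscle satellite cells through MET, was at 9.28, 8.89 and 9.16 with sh-PIP4K2B, against 8.44, 8.38 and 8.65 with shX, where the nearest arrays differed by 0.24 (change 0.62, SE 0.10, adjusted p = 0.00188). The PDGF ligands were not past the threshold. Pdgfd stood at -0.47 (SE 0.10, adjusted p = 0.0137), short of 1.4-fold, Pdgfc at -0.19, Pdgfb at 0.22 and Pdgfa at 0.12. The BMP antagonist Grem1 rose by 0.50, SE 0.08, adjusted p = 0.00106, and Tgfb2 fell by 0.55, SE 0.10, adjusted p = 0.00305. Each of these calls was lost in 6 of the 18 settings tried, that of Grem1 without sh-PIP4K2B replicate 1 or shX replicate 1 or 3 and that of Tgfb2 without sh-PIP4K2B replicate 2 or shX replicate 1. Epha5 stood at 0.24 (SE 0.11, adjusted p = 0.264) with overlapping arrays.

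The largest rise of all was that of Sprr2b, a precursor of the tough outer envelope of skin cells, at 8.11, 7.88 and 7.98 with sh-PIP4K2B, against 5.82, 5.50 and 5.90 with shX. The nearest arrays of both groups were 1.99 log2 units apart, and the change was 2.25 (SE 0.13, adjusted p = 1.36e-08), or 4.76-fold. The other 27 measured Sprr and epidermal genes were not past the threshold. Its neighbours on chromosome 3, Sprr2d, Sprr2e and Sprr2f, stood at 0.31, 0.38 and 0.01, and the keratin Krt14 at 0.47 (adjusted p = 0.0029). Whether Sprr2 probes pick up more than one gene was not tested. Its promoter holds TATAAA, the letters of a TATA box, at -29 from the start, shown in capitals.
Sprr2b, chr3:92316626-92316703, plus strand: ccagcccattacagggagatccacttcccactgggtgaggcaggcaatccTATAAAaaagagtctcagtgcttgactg
Among all promoters searched, TATAAA stood in 7 of 50 promoters of genes that rose (14.0%), in 7 of 75 that fell (9.33%) and in 12.1% of all. TGACTCA, the letters AP-1 binds, stood in 4 of these 50 and 5 of these 75 (8.0% and 6.67%) and in 703 of all (4.52%). TGACNNNGC, the letters of the element NRF2 binds, searched after the gene results were seen, stood in 10.0%, 12% and 13.4%.

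**Figure D3:**
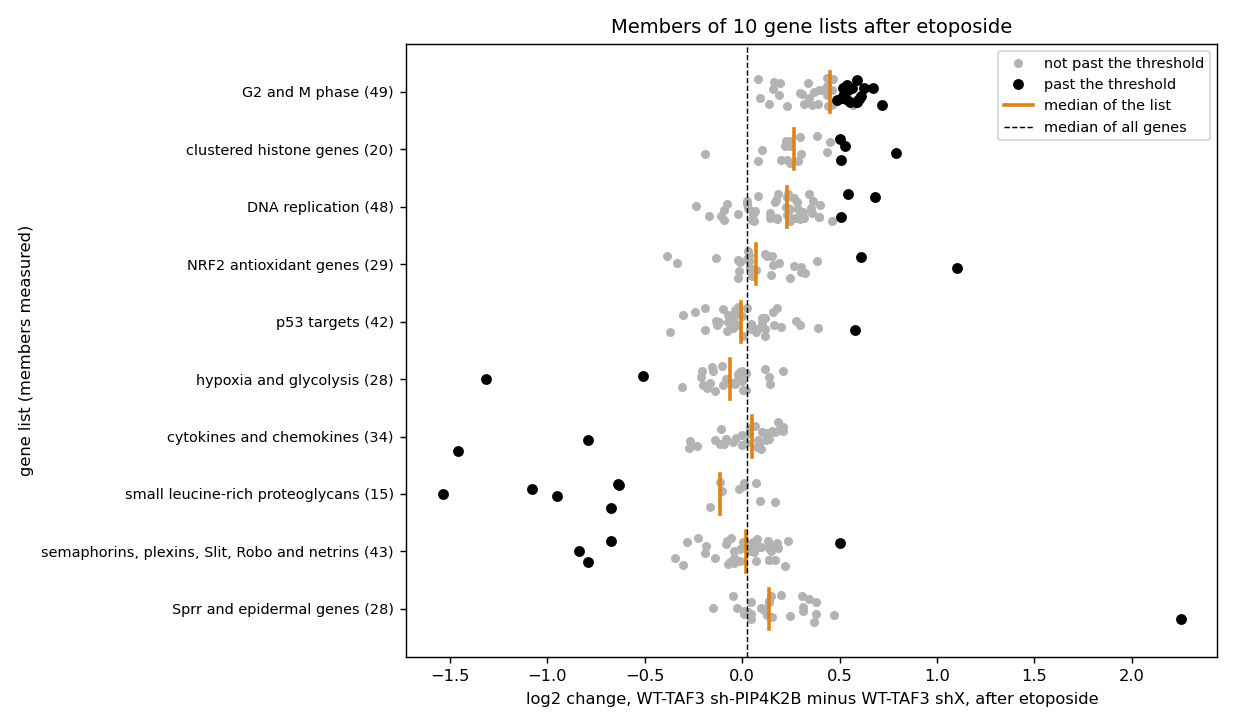
Log2 change of every measured member of 10 gene lists (rows, with the number of members) on PIP4K2B depletion after etoposide; black points are past the threshold, orange bars mark the median of a list and the dashed line that of all genes, 0.024. The medians of the G2 and M, histone and DNA replication lists lie right of the line at 0.45, 0.27 and 0.23, while 6 of the 15 small leucine-rich proteoglycans stand far to the left.

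Sh2d1b1, an adaptor of immune receptors, was at 8.66, 8.25 and 8.32 with sh-PIP4K2B, against 6.81, 6.92 and 7.00 with shX (change 1.5, SE 0.14, adjusted p = 3.41e-06). Cd74, the invariant chain of MHC class II, was at 8.15, 8.12 and 7.98, against 7.12, 7.08 and 7.11 (change 0.98, SE 0.08, adjusted p = 1.41e-06). Cd200, an immunoglobulin-family surface protein that restrains myeloid cells, was at 8.71, 8.44 and 8.61, against 7.72, 7.65 and 7.68 (change 0.91, SE 0.09, adjusted p = 4.57e-06). The nearest arrays were 1.25 apart for Sh2d1b1, 0.86 for Cd74 and 0.72 for Cd200, while none of 12 macrophage markers passed. Slc16a11, a transporter of the monocarboxylate family, rose by 0.78, SE 0.07, adjusted p = 3.76e-06, and Glipr1 by 0.71, SE 0.14, a call lost on the 6 arrays alone and without sh-PIP4K2B replicate 3.

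Of phosphoinositide, sarcomere and excitation-contraction coupling genes 3.08%, 1.85% and 3.33% passed the threshold, against 0.868% of all genes. No gene of the TAF3 complex did, though lists of this length hold few or no calls at that share. Of 65 phosphoinositide kinases, phosphatases and phospholipases 2 were lower, Pip4k2b and Plcg2, the phospholipase of immune receptor signalling, at -0.67 (SE 0.12, adjusted p = 0.00216), and none was higher. Pip4k2b is the target of the shRNA, so its call says nothing about the list, and Plcg2 was the only other member past the threshold. None of 34 genes of TFIID and general transcription factors, 49 PHD finger genes and 35 regulators of myogenesis and fusion was called by limma, and with the p left unadjusted the counts were 0, 0 and 1. Of 54 sarcomere genes Myom2, which links myosin filaments at the M-band, fell by 0.62, SE 0.11, adjusted p = 0.00364, and of 30 genes of excitation-contraction coupling the junctional protein Trdn fell by 0.64, SE 0.11, adjusted p = 0.00176. The calls of Myom2 and Trdn were lost in 3 settings each, that of Trdn without sh-PIP4K2B replicate 2 among them. Other transcript clusters of Trdn changed by -1.09 to 0.26, and of these only those at -0.78 and -0.945 were past the threshold. Cd34, which marks satellite and reserve cells, was at 10.22, 9.95 and 10.11 with sh-PIP4K2B, against 10.74, 10.74 and 10.81 with shX (change -0.67, SE 0.07, adjusted p = 2.14e-05). It was the only one of 29 Notch and reserve cell genes past the threshold. Insig1, which holds back cholesterol synthesis, fell by 0.62, SE 0.09, and was the only one of 30 cholesterol and lipid synthesis genes past the threshold. In that list 4 changes were above 0 and the median was -0.072. Without the fold limit 6 of its genes were lower and 0 higher, while 421 of all genes tested were lower and 207 higher. After differentiation 4 genes of this list were higher and 0 lower, with a median of 0.175. The effect after etoposide minus that after differentiation was past the threshold below 0 for 11 of them and above 0 for 0. Below 0 it was past the threshold for 2.07% of all genes. Ern1, a sensor of unfolded protein, fell by 0.49, SE 0.10. The call of Ern1 was lost in 9 of 18 settings, among them those without sh-PIP4K2B replicate 2 or 3 or shX replicate 1 or 2.

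The same shRNA was also compared in differentiated cells, on other arrays, where it raised 136 genes and lowered 75 (0.682%, 0.376% and together 1.06% of all). That split was 318 and 31 with each array centred on its median and 58 and 86 with the array medians as a covariate. The differentiated cells differed from the etoposide-treated ones in both drug and differentiation. What each adds to a difference between treatments cannot be told apart. Between the lists of both treatments 33 genes were shared, 19.1% of those after etoposide and 15.6% of those after differentiation: 13 higher in both, 18 lower in both and 2 with opposite sign. Of the 64 genes that rose after etoposide, 58 had a change above 0 after differentiation, with a median of 0.26. Of the 109 that fell, 72 had a change below 0 there, with a median of -0.15. Those higher in both include Sprr2b, Sh2d1b1, Nqo1, Hmox1, Cd200, Glipr1, Pappa, H2ac4 and Ccne2, and those lower in both Pip4k2b, Il33, Lum, Prelp, Mmp2, Slit2, Socs2, Ptges3, Chst15 and Cd34. Grem1 and Trdn had opposite signs, at 0.50 and -0.64 after etoposide and at -0.65 and 0.53 after differentiation.

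**Figure D4:**
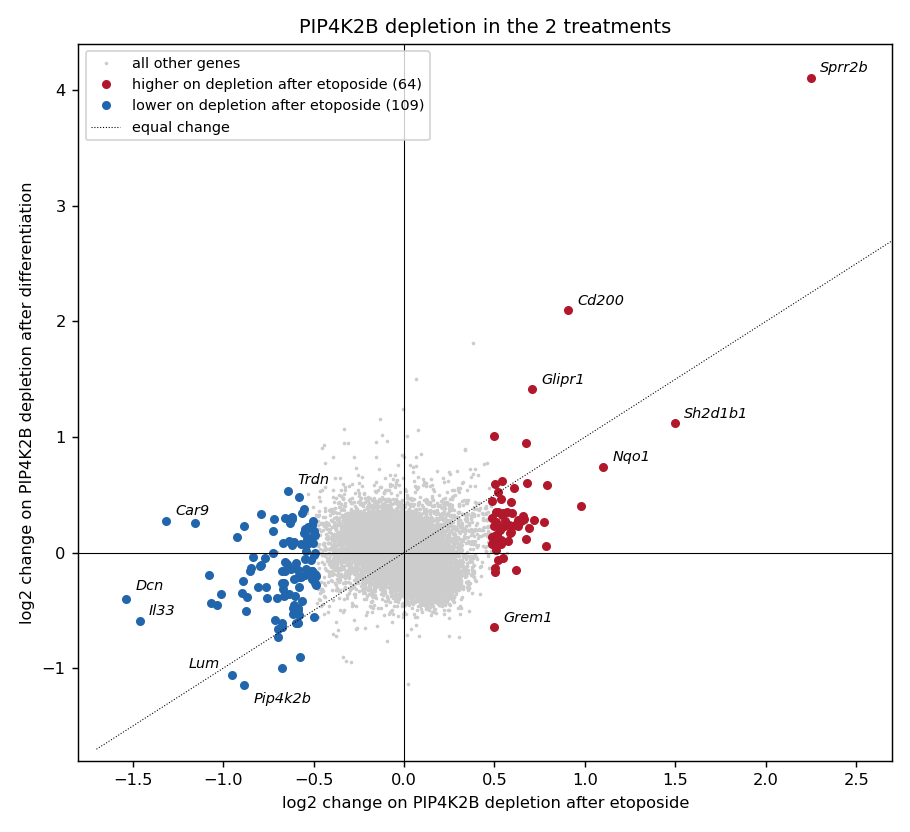
Log2 change of each gene on PIP4K2B depletion after etoposide (horizontal) and after differentiation (vertical), with the 64 genes higher (red) and the 109 lower (blue) after etoposide; the dotted line marks equal change. Sprr2b and Cd200 lie above the line, and Dcn and Car9 lie far left with changes of -0.40 and 0.28 after differentiation.

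The difference itself, the effect after etoposide minus the effect after differentiation, was past the threshold for 801 genes, 388 above 0 (1.95%) and 413 below (2.07%), together 4.02%. That balance was not seen among genes above the median signal, with 96 above 0 and 387 below. The count of 801 depended on single arrays, with 2668 without sh-PIP4K2B etoposide replicate 1 and 180 without differentiated shX replicate 1. Single genes are therefore given here where the difference held in all 19 settings. The falls after etoposide exceeded the changes after differentiation for Dcn, with a difference of -1.14 (adjusted p = 8.11e-06), Car9 with -1.59 (adjusted p = 4.96e-05), Sema3c with -0.80, Sema3d with -1.13, Serpinb6b with -1.065 and Il33 with -0.87. After differentiation Car9 and Sema3c stood at 0.28 and -0.04. The Car9 signal was dim there, at 5.94 to 6.43 on the shX and 6.47 to 6.63 on the sh-PIP4K2B arrays. Both ranges lie below the medians of these arrays, so a fall could have gone unseen. Il33 was dim with sh-PIP4K2B in both treatments, with means of 6.94 after etoposide and 6.87 after differentiation. The shX means were 8.40 and 7.46, so a larger Il33 fall after differentiation could have gone unseen too. The changes of Hgf and Slc16a11 were more positive after etoposide, by 0.77 and 0.73, with -0.15 and 0.05 after differentiation. Sprr2b and Cd200 rose less after etoposide, with differences of -1.86 and -1.19 from changes of 4.11 and 2.10 after differentiation. Fmo1, Lrrn1 and C1qtnf3, not past the threshold after etoposide, differed by -1.43, -1.43 and -1.37. Lrrn1 was dim after etoposide, at 6.06 to 6.31 on the sh-PIP4K2B and 6.08 to 6.13 on the shX arrays, below the medians of these arrays. Of the 18 G2 and M genes Plk1 alone was past the threshold for the difference (0.55, adjusted p = 0.0195), a call lost without shX replicate 3 of etoposide, without differentiated shX replicate 1 or 2 and with each array centred on its median. The median change of the 49 was 0.28 after differentiation, where Kif4 and Cenpi passed.

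KK-TAF3 sh-PIP4K2B cells were treated with etoposide in parallel. Since they carry the same shRNA, their levels are given beside the others without a test. The KK-TAF3 mean lay nearer to that of WT-TAF3 sh-PIP4K2B cells than to that of WT-TAF3 shX cells in 123 of the 173 genes, 59 of the 64 that rose and 64 of the 109 that fell. The WT-TAF3 sh-PIP4K2B and shX arrays chose these genes, so the counts are a description, and Sprr2b, Dcn and Il33 are not among the 123. Sprr2b stood at 7.88 to 8.11 in WT-TAF3 sh-PIP4K2B cells, at 5.35 to 5.79 in KK-TAF3 sh-PIP4K2B cells and at 5.50 to 5.90 in WT-TAF3 shX cells. Dcn stood at 10.45 to 10.72, 11.62 to 11.78 and 12.12 in the same order, Il33 at 6.73 to 7.16, 8.0 to 8.24 and 8.34 to 8.47, and Plk1 at 10.98 to 11.14, 10.83 to 11.16 and 10.22 to 10.50.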

How the data were processed

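Gene expression was measured on Affymetrix mouse gene arrays in 18 samples, 6 groups of 3, of which the labels give the genotype and treatment. The deposited values are log2 signals that the authors made by RMA in Affymetrix Expression Console, whose version is not given in the sources used here; the scanner files were not used here, so depth does not apply and the number of arrays limits the precision. RMA brings all arrays to 1 distribution, so a shift of the whole transcriptome would be removed. Gene names came from GEO's platform annotation of 35556 transcript clusters: 21789 had 1 symbol, 1621 several and 12146 none, and the paper's supplement names a later chip generation than this annotation. Each of the 19938 genes was represented by its brightest cluster with 1 symbol (999 genes had more than 1), and 19856 were found in the RefSeq table.

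Group means were fitted to all 18 arrays with limma 3.58.1 in R 4.3.3 (12 residual and 6.05 prior degrees of freedom), the difference between treatments as an interaction contrast, and p-values were adjusted by the Benjamini-Hochberg method over all genes. The methods name a 1.4-fold limit and a p-value threshold but no test. Signals were handled in Python 3.11.15 with pandas 2.3.3 and numpy 2.4.6 and drawn with matplotlib 3.10.9, and the fit was tested on simulated data. Named genes were Pip4k2b, Taf3, Tbp and the genes the study names for etoposide-treated cells (Cdkn1a and Tspan7 were not analysed here), the 12 largest rises and 12 largest falls with non-overlapping arrays (predicted genes, receptor segments and small RNAs excepted), up to 4 called members of each list, the 5 largest differences between treatments per direction, and up to 6 genes per direction called in both treatments with any of opposite sign; other list members and neighbours were added after their values were seen. The genes, the 39 gene lists (1341 of 1439 listed genes analysed) and the 8 marker lists were chosen with earlier results of these data known. Promoters were RefSeq's for 15563 genes.

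Replicate numbers paired the etoposide arrays: after subtraction of the group means, same-numbered sh-PIP4K2B and shX arrays correlated at 0.435, 0.332 and 0.559 across genes, and all pairs of other numbers below 0. Subtracting group means pulls the other pairs below 0 once same-numbered pairs lie above it, so their signs are no separate evidence. In differentiated cells the correlations were 0.205, -0.099 and -0.049, so the numbers did not pair them. Alternatives changed the arrays in the fit, the variance model, the normalization, the filter, the threshold and the replicate block, and left out each array in turn.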

Additional observations from a re-analysis of the deposited data

Results flagged for a closer look

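The effect of PIP4K2B depletion after etoposide differed from that after differentiation for 801 genes by limma's interaction contrast, and the values given here are log2 differences, etoposide minus differentiation.

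Among matrix and adhesion genes the difference was below 0 for Dcn at -1.14, Aspn at -0.89 and Itga4 at -0.63, and for Sema3c at -0.80, Sema3d at -1.13 and Gfra1 at -0.66. It was below 0 as well for Pappa at -0.51, for the secreted C1qtnf3 at -1.37, for Tgfb2 at -0.72 and for the serpins Serpinb6b at -1.065 and Serpinb9b at -0.69. Those above 0 were Grem1 at 1.14, Hgf at 0.77 and Plxna4 at 0.67.

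Of the genes of cell division Cdt1 differed by 0.59, Plk1 by 0.55 and Kif18b by 0.51. None of the 3 was past the threshold after differentiation, where they stood at -0.05, 0.12 and 0.26.

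Among genes of immunity Il33 differed by -0.87, Il1rn by -0.68, Cd200 by -1.19 and Cd74 by 0.57. Among those of metabolism and stress Car9 differed by -1.59, Pdk1 by -0.75, Insig1 by -0.69, Casp12 by -0.65, Fmo1 by -1.43, Slc16a11 by 0.73 and the p53-induced Trp53i11 by 1.16. Trp53i11 did not rise past the threshold after etoposide, where it stood at 0.02 (adjusted p = 0.909 by limma). After differentiation it fell, with a change of -1.13. The Car9 signal was dim after differentiation, that of Lrrn1 after etoposide, and that of Il33 with sh-PIP4K2B in both treatments. In muscle genes Trdn differed by -1.17 and Myom2 by -0.91.

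The remaining named genes were Sprr2b at -1.86, Lrrn1 at -1.43, Pfn2 at -1.11, Glipr1 at -0.70, Medag at -0.64 and Camk1g at -0.58, and Prp2 at 1.03, Klk1b11 at 0.84 and Unc45bos at 0.82. Prp2, Klk1b11 and Unc45bos stood at 0.30, 0.31 and 0.25 after etoposide, not past the threshold. After differentiation they stood at -0.73, -0.53 and -0.57.

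Of these 39 genes, 16 were past the threshold for the difference in all 19 settings: C1qtnf3, Car9, Cd200, Dcn, Fmo1, Grem1, Hgf, Il33, Lrrn1, Sema3c, Sema3d, Serpinb6b, Slc16a11, Sprr2b, Trdn and Trp53i11.

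Outside the named genes, 34 transcript clusters without a single gene symbol were past the threshold after etoposide when every cluster was tested, 5 higher and 29 lower, which is 0.247% of 13767 such clusters.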

How the results depend on the processing

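With the replicate block, which the pairing of the etoposide arrays calls for, 176 genes were past the threshold after etoposide, 169 of them among the 173, and the block changed no named gene's call. Restricting the fit to the 6 arrays gave 99, and dropping the fold limit 628. Leaving out an array gave 165 to 348, the highest without sh-PIP4K2B replicate 1. Leaving out both arrays of a number, chosen after seeing the data, gave 148 to 291, and the block on the 6 arrays, chosen likewise, 184. The split of higher and lower was 38 and 149 with each array centred on its median, 87 and 107 with quantile normalization within each treatment, and 96 and 81 with the array medians as a covariate. Pip4k2b stayed between -0.96 and -0.82. Of the 61 named genes past the threshold 42 kept their call in all 18 settings, and none changed direction.

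After differentiation the 211 genes became 1225 without the fold limit, 140 among genes above the median signal and 349 with centred arrays, and 140 to 323 on leaving out an array. The 801 genes with a difference between treatments became 1365 with an unadjusted p, 1329 without the fold limit, 115 against 1.1-fold and 455 on the 12 arrays. They became 483 above the median signal (96 above 0 and 387 below) and 274 with every transcript cluster (69 above 0 and 205 below). Centred arrays gave 1356 (66 above 0 and 1290 below), quantile normalization within each treatment 462, and the array medians as a covariate 96. Leaving out an array gave 180 to 2668, the lowest without differentiated shX replicate 1. The cause of these moves was not tested.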
